A study of Mus musculus with 5 samples.

Results

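The genes described here are 10 collagen chains of the mouse heart, Col1a1, Col1a2, Col3a1, Col5a1, Col5a2, Col5a3, Col6a1, Col8a1, Col12a1 and Col14a1. They were chosen by symbol, as chains that build or coat collagen fibrils, out of 17818 gene symbols measured. Earlier results of these data were known when they were chosen. Col6a1 and Col8a1 were on the list of symbols although neither chain forms banded fibrils. All 10 passed the filter on low values, which kept 12734 genes. The 5 libraries are poly-A RNA of male mouse hearts after bone marrow transplantation. The WT group was 1 library with the genotype label WT, given vector. The Tet2 vector group was 2 libraries with the genotype label Tet2+/-, which is loss of a single copy of the DNA demethylation enzyme gene Tet2, also given vector. The Tet2 oridonin group was 2 libraries with the label Tet2+/- given oridonin, a plant diterpenoid. All groups share the transplantation, with hearts taken 12 months after it and a treatment time of 2 months. The labels do not say whether Tet2+/- describes the marrow donor, the recipient or both, and give no strain, age, dose or conditioning. Titles name 1 or 2 months although the time label is 2 months throughout, so the title number served only as a replicate number. Nothing in the labels says whether replicates were separate animals or pools, so p-values measure the spread between these samples, which may be technical.

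Collagens are secreted proteins whose chains wind into a triple helix, built from repeats of glycine and a pair of other residues. Types I, III and V are fibrillar: type I gives fibrils their tensile strength, type III is a homotrimer that forms thinner, more compliant fibrils with it, and type V starts fibrils and limits their width. Types XII and XIV have short, interrupted helices and sit on the fibril surface. Type VI forms beaded filaments around cells, and type VIII forms networks, for example in vessel walls. In the heart, fibroblasts make most of the interstitial collagen, and more of it is deposited in fibrosis and with age.

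The chains fall into these classes by their predicted proteins. Translated from GENCODE M21 transcripts, the 6 fibrillar chains each held an unbroken run of 337 to 344 glycine triplets. The longest run was 87 triplets in Col6a1 and 60 in Col8a1. It was 32 in both Col12a1 and Col14a1. Blocks of at least 10 triplets made up 73.3% of the 1453 residues of Col1a1 but 7.63% of the 3065 residues of Col12a1. In GRCm38, the build also called mm10, Col1a1 lies at chr11:94936224-94953042, Col1a2 at chr6:4504814-4541544, Col5a1 at chr2:27886425-28039514 and Col14a1 at chr15:55307750-55520803, all on the plus strand. Col5a3 lies at chr9:20770050-20815067, Col6a1 at chr10:76708792-76726168, Col8a1 at chr16:57624258-57754737 and Col12a1 at chr9:79598991-79718831, all on the minus strand. Col3a1 (chr1:45311538-45349706, plus strand) and Col5a2 (chr1:45374321-45503282, minus strand) are neighbours that face each other across 24614 bases. Annotated genes overlap exons of Col3a1 (Gm47302, a microRNA gene on the same strand), Col5a1 (2810430I11Rik and Gm13372, opposite strand) and Col14a1 (1700040F17Rik, antisense). None of these 4 is a row of the table, and the sources used here do not say whether counting used strand, so their reads cannot be told apart from those of the collagens.

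The promoters of Col3a1, Col5a1 and Col5a3 are shown because Col3a1 and Col5a3 differed from WT in opposite directions and Col5a1 is the partner chain of Col5a3. Each sequence is the 250 bases before the annotated start, from RefSeq on GRCm38.p6, where 6 of the 10 genes had an entry. Capitals mark the word CCAAT, the word TATAAA or the word GGGCGG, searched on both strands, and no marked words overlap here.
Col3a1, chr1:45311288-45311537, plus strand: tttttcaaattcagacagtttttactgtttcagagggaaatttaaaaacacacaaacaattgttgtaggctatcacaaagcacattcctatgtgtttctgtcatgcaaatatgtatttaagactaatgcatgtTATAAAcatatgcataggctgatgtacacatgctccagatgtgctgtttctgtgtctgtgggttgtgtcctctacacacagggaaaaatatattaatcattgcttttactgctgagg
Col5a1, chr2:27886175-27886424, plus strand: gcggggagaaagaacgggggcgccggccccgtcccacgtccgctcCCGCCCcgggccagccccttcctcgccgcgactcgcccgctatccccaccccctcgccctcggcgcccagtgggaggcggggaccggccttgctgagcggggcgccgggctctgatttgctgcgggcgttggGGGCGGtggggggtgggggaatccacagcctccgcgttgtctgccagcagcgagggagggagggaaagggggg
Col5a3, chr9:20815068-20815317, minus strand: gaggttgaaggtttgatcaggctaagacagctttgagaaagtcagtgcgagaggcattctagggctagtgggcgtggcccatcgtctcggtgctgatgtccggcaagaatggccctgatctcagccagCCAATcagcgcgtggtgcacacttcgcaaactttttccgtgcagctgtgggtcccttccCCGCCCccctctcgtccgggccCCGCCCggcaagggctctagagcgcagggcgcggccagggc
The Col3a1 window is 35.2% G or C and holds TATAAA 117 bases before the start. That of Col5a1 is 76.4% G or C with GGGCGG words 205 and 73 bases before it. The Col5a3 window, 62.8% G or C, holds CCAAT 122 bases before the start and GGGCGG words 63 and 41 bases before it. Among 32851 promoter windows of the same length, 33.9% hold the CCAAT word, 12.4% the TATAAA word and 32.7% the GGGCGG word. Col1a1, Col5a2, Col12a1 and Col14a1 had no entry among the promoters used here, and those of Col1a2, Col6a1 and Col8a1 are not shown.

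Levels are in CPM, the count of a gene relative to all counts of its library. The deposited log2 values of the 4 Tet2 columns are mixtures, with weight 0.75 on the library itself and 0.25 on the other replicate of its group, and the mixing was undone first. The WT column is fitted by a like mix with a second set of counts that is not a column of the table, and was used as deposited. Totals ran from 14574823 to 15535778 counts, which puts a floor of 3 counts at 0.193 to 0.206 CPM. Tet2 was at 15.6 CPM in WT, 19.2 and 7.76 CPM with vector and 9.43 and 17.9 CPM with oridonin, which does not separate the genotype labels. The heart muscle marker Tnnt2 was at 4465 to 6409 CPM. Tet2 vector replicate 1 stood apart in atrial muscle genes, which summed to 1150 CPM there against 44.7 to 117 CPM in the other 4. Tet2 vector replicate 2 stood apart in Thbs4 (70.0 CPM against 4.24 to 11.9 CPM elsewhere). Comp was highest there too (45.3 CPM), but was also high in vector replicate 1 (20.02 CPM). It was at 2.77 CPM in WT and at 3.28 and 1.58 CPM with oridonin. Thbs4 and Comp are listed here both as tendon, valve and cartilage genes and as activated fibroblast genes. The other 10 genes of the tendon, valve and cartilage list summed to 24.6 CPM in vector replicate 2, against 30.2 CPM in vector replicate 1 and 21.7 CPM in WT. The 2 vector replicates form the group with the highest summed collagen level, and the part of these genes in the results was not tested.

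Most of the 10 chains were at higher levels in both Tet2 vector hearts than in the WT heart, and most were nearer to the WT level in both oridonin hearts. The fold over WT was largest for Col12a1 and Col3a1, and Col5a3 was the member with a lower level. In bulk RNA, fewer fibroblasts and less collagen RNA per fibroblast cannot be told apart. In no comparison did any of the 10 pass an FDR of 0.05 in limma. Over all 12734 genes limma called 0% in each of the 3 comparisons, which is 0 genes. Unadjusted, p was under 0.05 for 1221 genes in vector against WT, for 331 between oridonin and vector and for 791 between oridonin and WT, and voom called 0 in each. On the deposited log2 values, where mixing narrows the spread between replicates, limma called 9 members against WT, with 18.2% of all genes called, and 6 in oridonin against vector, with 0.597% called. Differences are therefore given as sizes and as whether the libraries overlap.

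Col1a1 and Col1a2 encode the alpha1 and alpha2 chains of type I, the bulk of heart collagen. Col1a1 was at 38.3 CPM in WT, 99.3 and 102 CPM with vector in Tet2 hearts and 51.8 and 57.9 CPM with oridonin. The vector libraries were the highest and the oridonin libraries lay between them and WT, with no overlap. Limma gave a log2 fold change of 1.39 (SE 0.21, adjusted p = 0.293) for vector against WT and -0.87 (SE 0.17, adjusted p = 1.00) for oridonin against vector. Col1a2 was at 86.2 CPM in WT, 163 and 154 CPM with vector and 78.1 and 76.8 CPM with oridonin. Its oridonin libraries were below WT as well as below vector. The log2 fold change was 0.88 (SE 0.20, adjusted p = 0.360) against WT and -1.03 (SE 0.16, adjusted p = 0.691) for oridonin against vector.

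Col3a1, the sole chain of type III, was at 50.4 CPM in WT, 180 and 163 CPM with vector and 75.2 and 89.8 CPM with oridonin. Vector libraries were 3.56 and 3.24 times the WT level, and oridonin libraries 1.49 and 1.78 times. The log2 fold change of 1.76 (SE 0.22, adjusted p = 0.264) against WT had a 95% interval of 1.22 to 2.30, and that of oridonin against vector was -1.06 (SE 0.18, adjusted p = 0.864). Col3a1 and Col1a1 stayed above WT in both oridonin libraries, by 0.71 (adjusted p = 0.723) and 0.52 (adjusted p = 0.791) on the log2 scale.

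Type V was measured by its 3 chains. Col5a1 was at 26.7 CPM in WT, 43.3 and 34.2 CPM with vector and 23.4 and 26.5 CPM with oridonin. The log2 fold change was 0.53 (SE 0.26) against WT and -0.63 (SE 0.21) for oridonin against vector. Col5a2, the partner of Col5a1 in the common heterotrimer, was at 19.3 CPM in WT, 33.2 and 27.4 CPM with vector and 15.8 and 19.9 CPM with oridonin. Both chains were highest in the vector libraries. The WT level lay just above both oridonin libraries for Col5a1 and between them for Col5a2. Col5a3, a minor alpha3 chain, was at 12.4 CPM in WT, 7.08 and 8.48 CPM with vector and 9.50 and 7.89 CPM with oridonin. It was highest in WT, and the vector and oridonin libraries overlapped. Its log2 fold change was -0.68 (SE 0.31, adjusted p = 0.542) against WT and 0.16 (SE 0.25, 95% interval -0.46 to 0.78) between oridonin and vector.

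Col12a1 encodes the type XII chain, abundant in tendon and ligament, and Col14a1 the related type XIV chain. Col12a1 was at 1.02 CPM in WT, 4.25 and 6.65 CPM with vector and 0.82 and 0.82 CPM with oridonin. The Tet2 libraries had 66, 102, 12 and 12 counts in that order. The WT value, from a column left mixed, equals about 15 counts. Exact Poisson intervals (95%, counting error only) ran from 3.29 to 8.07 CPM over the vector libraries and from 0.424 to 1.44 CPM over the oridonin libraries. The log2 fold change was 2.35 (SE 0.53, adjusted p = 0.360) against WT and -2.64 (SE 0.43, adjusted p = 0.795) for oridonin against vector, the largest of the 10 in both. Its highest library was replicate 2 of Tet2 vector, which also had the highest Thbs4 and Comp. Without that library the log2 fold change was 2.03 against WT and -2.32 for oridonin against vector. Col14a1 was at 11.7 CPM in WT, 31.1 and 23.9 CPM with vector and 6.15 and 10.3 CPM with oridonin. The oridonin libraries were below both WT and vector, and differed from each other by 0.74 on the log2 scale in size. The log2 fold change was 1.22 (SE 0.39, adjusted p = 0.460) against WT and -1.77 (SE 0.32, adjusted p = 0.912) for oridonin against vector.

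Col6a1, a chain of the type VI beaded filament, was at 48.6 CPM in WT, 86.4 and 77.0 CPM with vector and 50.3 and 48.9 CPM with oridonin. The oridonin libraries were within 1.04-fold of WT, and the vector libraries were apart from the rest. Its log2 fold change was 0.75 (SE 0.21, adjusted p = 0.438) against WT and -0.72 (SE 0.17) for oridonin against vector. Col8a1, the type VIII alpha1 chain, was at 18.2 CPM in WT, 18.6 and 32.4 CPM with vector and 15.7 and 19.97 CPM with oridonin. Only replicate 2 of the vector group stood above the rest, and vector and oridonin libraries overlapped. The log2 fold change of 0.43 (SE 0.39) against WT became 0.03 without that library and 0.83 without replicate 1. That of oridonin against vector, -0.47 (SE 0.32), became -0.07 and -0.87 in the same way.

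**Figure D1:**
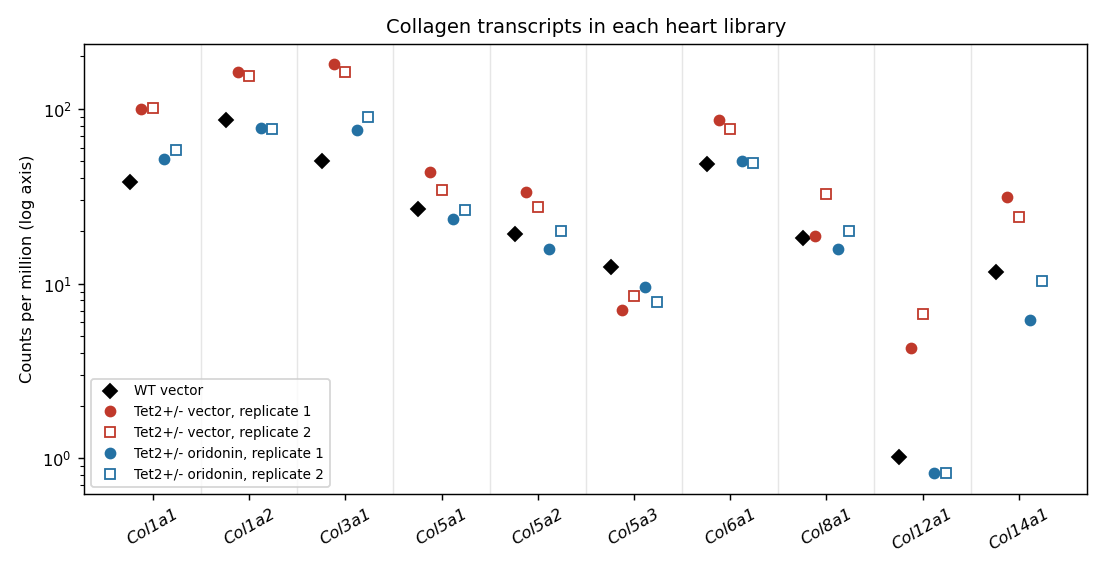
Level of each collagen in every library, in CPM on a log axis, with 1 point per library, coloured by group and shaped by replicate. Points of the Tet2 vector group sit above the WT point for 9 of the 10 genes, and Col5a3 is the exception.

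Counted over the list, 9 of 10 members had both vector libraries above WT (8 with median-of-ratios scaling) and 1, Col5a3, had both below. With 1 WT library this is common: 35.4% of all genes tested were higher in that way and 32.3% lower. A stricter count, with the nearest libraries at least 1.5-fold apart, held for 6 members (Col1a1, Col1a2, Col3a1, Col6a1, Col12a1 and Col14a1) against 8.31% of all genes. The same 6 had an unadjusted p under 0.05 with a higher level, against 5.06% of all genes. The median log2 fold change was 0.81 over the members and 0.005 over all genes tested. Without replicate 1 of Tet2 vector, which carried the atrial RNA, 9 members and 46.2% of all genes were above WT, and without replicate 2 these were 9 and 56.9%.

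In oridonin against vector, 8 of 10 members had both oridonin libraries below both vector libraries, the exceptions being Col5a3 and Col8a1. Of all genes tested 17.8% did so, and 8.37% were higher without overlap, which held for 0 members. A gap of at least 1.5-fold held for 6 members, the same 6 as above, against 1.25% of all genes. Because the members were chosen with earlier results known, the shares here and against WT describe the list and do not test it. An unadjusted p under 0.05 with a lower level was found for 8 members, against 1.93% of all genes. The median log2 fold change was -0.82 over the members and -0.05 over all genes. Without replicate 1 of Tet2 vector 9 members and 35.0% of all genes were lower with oridonin, and without replicate 2 these were 8 and 51.3%. This comparison and the one with WT share the Tet2 vector libraries, so a low or high vector library moves both.

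Between oridonin and WT, 3 members (Col1a1, Col3a1 and Col6a1) were higher in both oridonin libraries, where 31.9% of all genes were. For 5 members (Col1a2, Col5a1, Col5a3, Col12a1 and Col14a1) both libraries were lower, where 41.7% of all genes were. These shares are near the background, and the median log2 fold change was -0.11 over the members and -0.06 over all genes.

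**Figure D2:**
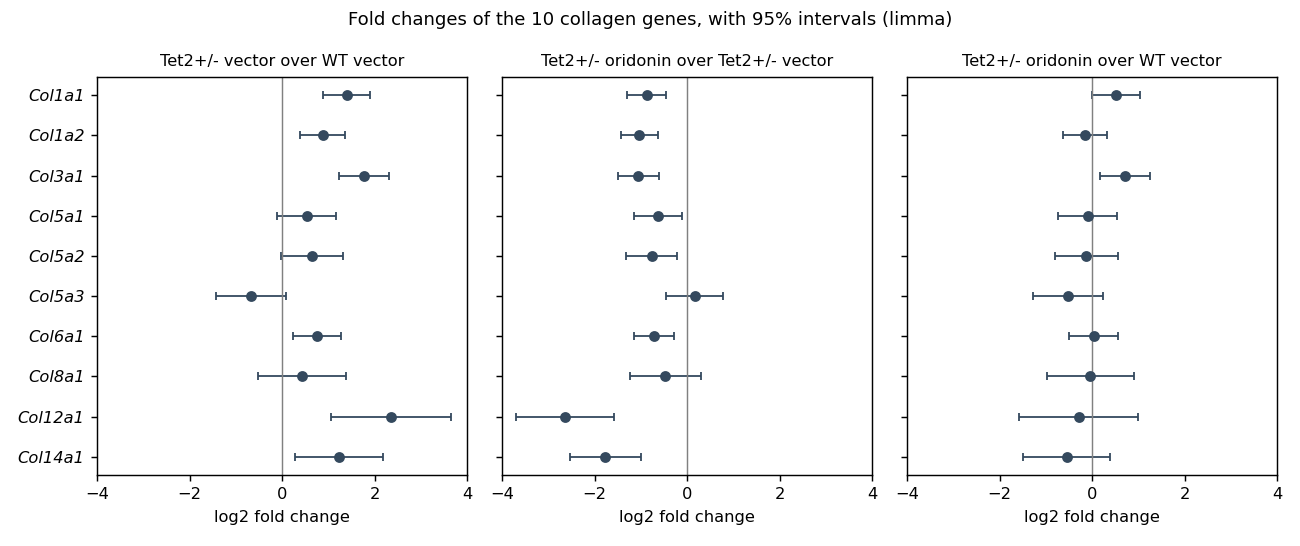
Log2 fold change of each collagen (points) in the 3 comparisons, with bars for 95% intervals from limma. Col12a1 lies farthest from 0 in the comparisons of vector with WT (2.35) and of oridonin with vector (-2.64), and the intervals of oridonin against WT include 0 for all but Col3a1 and Col1a1.

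The balance between chains was compared per kilobase of transcript. The 10 members summed to 313 CPM in WT, 666 and 629 CPM with vector and 327 and 359 CPM with oridonin. Type I made up 37.0% to 40.2% of the summed level per length in every library, whereas Col3a1 took 15.9% in WT and 22.6% to 26.7% in the 4 Tet2 libraries. The ratio of Col3a1 to Col1a1 was 1.40 in WT, 1.93 and 1.71 with vector and 1.55 and 1.65 with oridonin. Col1a1 relative to Col1a2, the alpha1 to alpha2 balance of type I, was 0.401 in WT, 0.548 and 0.597 with vector and 0.599 and 0.680 with oridonin. All 4 Tet2 libraries were above the WT library in both ratios, which has no spread of its own. Col5a1 to Col5a2 stayed between 0.983 and 1.17, while Col5a3 to Col5a1 was 0.638 in WT, 0.225 and 0.341 with vector and 0.557 and 0.409 with oridonin. Col8a1 to Col1a1 was also highest in WT, at 0.553, with 0.218 and 0.370 with vector and 0.352 and 0.4003 with oridonin.

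In order of level per length, Col1a2 led in WT and in oridonin replicate 1, and Col3a1 led in the other 3. With vector, Col3a1 (32.3 and 29.3 CPM per kilobase) and Col1a2 (30.5 and 28.7) overlapped, as did Col5a1 (5.15 and 4.07) and Col5a2 (5.01 and 4.13). Col6a1 ranked next in both vector libraries, ahead of Col1a1, and Col12a1 was last in all 5.

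**Figure D3:**
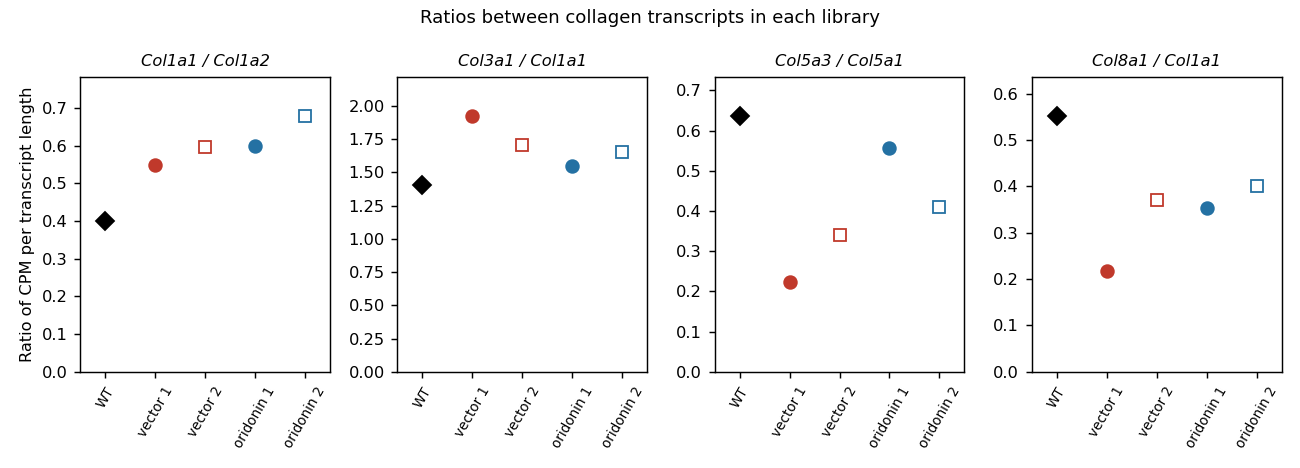
Ratios of CPM per transcript length between collagen chains, in 4 panels with linear axes from 0 and 1 point per library. Col1a1 over Col1a2 is lowest in WT (0.401), and Col5a3 over Col5a1 is highest there (0.638).

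Other collagens differed by family. Of the other fibrillar and fibril-associated collagens, 11 of 12 listed genes were in the table and 4 were tested, with 3 higher and 1 lower in vector against WT (median 0.75) and 3 lower with oridonin (median -0.74). Col27a1, a fibrillar chain, was at 2.80 CPM in WT, 8.37 and 5.74 CPM with vector and 3.42 and 3.57 CPM with oridonin. Col6a2, the partner of Col6a1, was at 37.9, 76.7, 78.3, 56.7 and 52.8 CPM in the same order. Col4a2, a basement membrane chain, was lower with vector: it was at 228 CPM in WT, 156 and 150 CPM with vector and 208 and 204 CPM with oridonin. Col15a1, a chain near basement membranes, was higher with vector, at 23.4 CPM in WT, 77.0 and 58.3 CPM with vector and 49.1 and 50.2 CPM with oridonin. Over the 10 tested collagens of the remaining types, 3 were higher and 7 lower in vector against WT, with a median of -0.50.

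Genes that modify, fold and secrete collagen had medians nearer to 0 than the chains. Of 23 tested, 15 were higher and 8 lower in vector against WT (median 0.12), 3 and 1 with an unadjusted p under 0.05. Over all 12734 genes tested these were 644 and 577. In oridonin against vector 7 were higher and 16 lower (median -0.06). Crtap, part of the prolyl 3-hydroxylation complex, was at 19.6 CPM in WT, 29.9 and 32.3 CPM with vector and 27.5 and 24.2 CPM with oridonin. Tmem38b, an ion channel gene of the endoplasmic reticulum, was at 64.3 CPM in WT and between 32.4 and 38.9 CPM in the 4 Tet2 libraries. Among 6 tested genes of procollagen cleavage the medians were 0.21 and -0.39. Adamts2, which removes the amino-terminal propeptide, was at 20.3 CPM in WT, 35.7 and 35.2 CPM with vector and 20.2 and 19.6 CPM with oridonin. Pcolce, an enhancer of carboxy-terminal cleavage, was at 29.997, 62.3, 68.1, 51.3 and 49.1 CPM in that order. Of 9 tested receptors and uptake genes, 4 were higher and 5 lower against WT, with medians of -0.26 and -0.16. Mrc2, which takes up collagen fragments, was at 20.2, 31.7, 27.5, 18.3 and 20.9 CPM. Adgrg1, a receptor that binds type III collagen, ran the other way, at 100.4 CPM in WT, 39.4 and 56.9 CPM with vector and 78.5 and 65.04 CPM with oridonin.

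**Figure D4:**
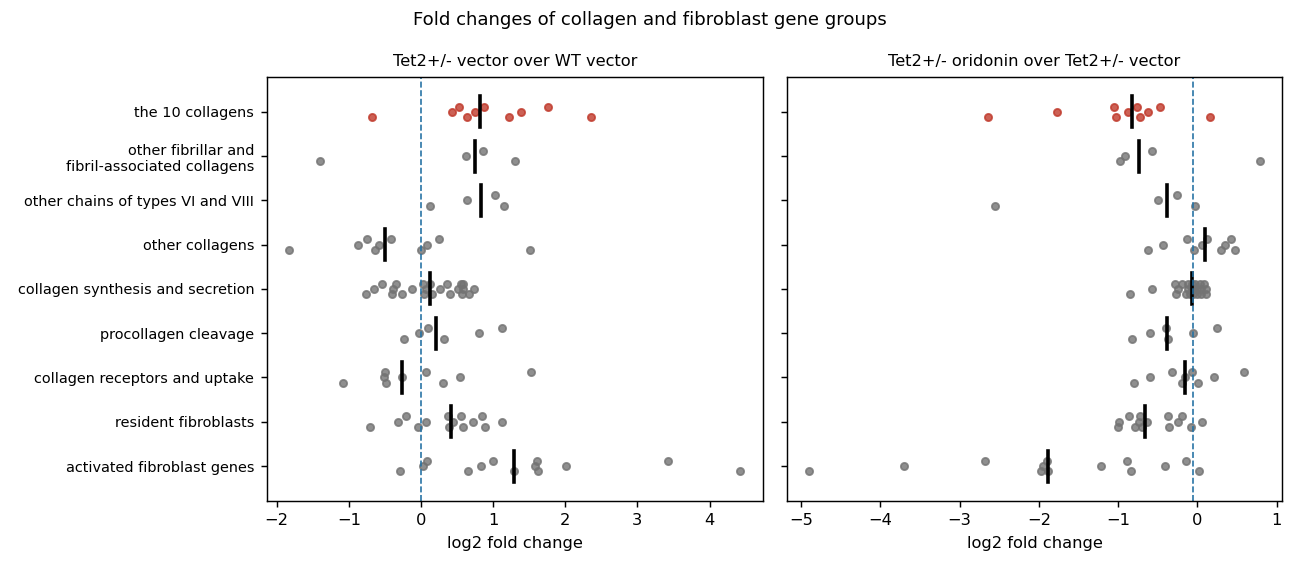
Log2 fold changes of the collagens, the collagen pathway lists and the fibroblast lists, with 1 point per tested gene, a black bar at each list's median and a dashed line at the median of all genes tested. The median of the 10 members is 0.81 in vector against WT and -0.82 in oridonin against vector, against 0.12 and -0.06 for synthesis and secretion genes.

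Genes of fibroblasts, the main source of the chains, were set beside them. The 14 resident fibroblast genes summed to 3366 CPM in WT, 3606 and 3612 CPM with vector and 2445 and 2297 CPM with oridonin. The largest part was Gsn, at 1943.5 CPM in WT, 1682 and 1691 CPM with vector and 1178 and 1005 CPM with oridonin. Gsn was lower with vector than in WT (log2 fold change -0.20), which lowers the summed fold over WT. The median log2 fold change of the 14 genes was 0.42 in vector against WT and -0.66 in oridonin against vector. Of the 14, 10 had both oridonin libraries below both vector libraries, as did 17.8% of all genes tested. Against WT, 4 members (Col1a1, Col3a1, Col12a1 and Col14a1) lay above the whole range of these genes, which ran from -0.70 in Scara5 to 1.12 in Pcolce. Col14a1, at 1.22 (SE 0.39), passed Pcolce by less than its SE. In oridonin against vector, 4 (Col1a2, Col3a1, Col12a1 and Col14a1) lay below the range of -1.001 in Lum to 0.06 in Ly6a, and Col5a3 lay above it. Col1a2 (-1.03, SE 0.16), Col3a1 (-1.06, SE 0.18) and Col5a3 (0.16, SE 0.25) each passed the end of the range by less than their own SE. Genes of activated fibroblasts had medians of 1.29 and -1.88 over 13 tested. The vector libraries differed in this list, with a median log2 difference from WT of 0.78 in replicate 1 and 1.76 in replicate 2. Cilp, Ltbp2, Nox4 and Thbs4 were all higher in replicate 2, Cilp at 117 CPM against 19.6 CPM in replicate 1 and 45.2 CPM in WT. Others of the list were higher in replicate 1, among them Acta2 (480 CPM against 214 CPM in replicate 2) and Fn1 (93.7 CPM against 64.5 CPM). Acta2 is also listed here as a gene of smooth muscle and pericytes. Postn, which encodes periostin, was at 35.8 CPM in WT, 87.0 and 141 CPM with vector and 30.6 and 29.3 CPM with oridonin. Fmod, a fibril-binding proteoglycan, was at 0.516, 12.6, 11.02, 0.205 and 0.617 CPM in that order.

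Markers of other cells were also compared. Macrophage genes had a median log2 fold change of 0.64 in vector against WT, with 10 of 12 higher. Of the 12, 6 were higher at an unadjusted p under 0.05 in limma, against 5.06% of all genes tested. In oridonin against vector the median was -0.25, with 9 of 12 lower. Only 1 of these was lower at an unadjusted p under 0.05, against 1.93% of all genes. The macrophage median against WT is above the 0.42 of resident fibroblast genes. Summed, they were at 1.78 and 1.17 times WT with vector and 1.10 and 1.07 times with oridonin. Median log2 fold changes, vector against WT first and oridonin against vector next, were -0.39 and -0.12 for smooth muscle and pericytes, -0.27 and 0.15 for endothelium, and 0.06 and 0.14 for cardiomyocytes. The fat cell list was mostly Fabp4, which the endothelium list also holds and which took 88.1% to 92.3% of its sum, and the other 9 genes summed to 57.0 to 68.4 CPM. Nerve genes summed to 11.5 to 29.0 CPM and epicardial genes to 4.17 to 7.34 CPM. Of the defining fat genes, Car3 had 194 counts in replicate 1 of Tet2 vector and 44 in replicate 2 of oridonin, against at most 5 in the others. The part of these differences in the collagen results was not tested.

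**Figure D5:**
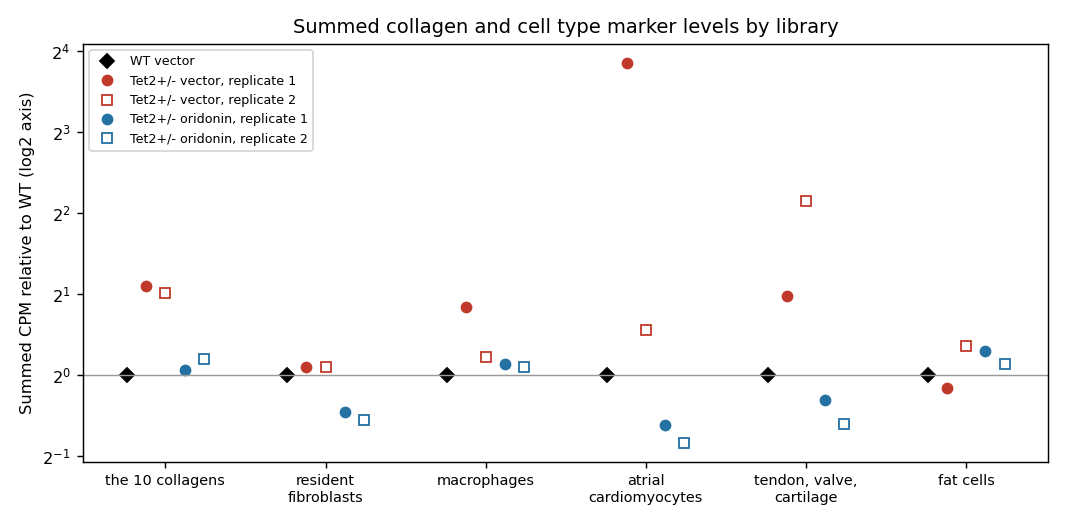
Summed CPM of the 10 collagens and of marker genes of 5 cell or tissue types relative to WT, on a log2 axis with 1 point per library. Atrial genes reach 14.4 times WT in replicate 1 of Tet2 vector and tendon, valve and cartilage genes 4.42 times in replicate 2, or 1.13 times without Thbs4 and Comp. The fat cell sum is mostly Fabp4, and Gsn is the largest part of the resident fibroblast sum.

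Of the 8167 non-collagen genes whose mean level reached 10 CPM, 5 lay nearest to the mean profile of the 10 chains over the 5 libraries, by root mean square difference of centred log2 values. They were Lum (0.078), Rpl23a-ps3 (0.082), Adamts2 (0.099), Tmem176b (0.129) and Emp1 (0.131). Rpl23a-ps3 is a pseudogene that may share reads with its parent gene, so its value is uncertain. Lum, a small proteoglycan that binds collagen fibrils, was at 57.1 CPM in WT, 114 and 99.2 CPM with vector and 48.9 and 57.5 CPM with oridonin. The members themselves lay between 0.082 (Col1a2) and 0.805 (Col12a1) from that profile, with Col5a3 at 0.674. Nearest to Col1a1 alone were Gbp2 (0.087), Sfrp1 (0.089) and Abracl (0.126), and to Col8a1 alone AW112010 (0.088), Timm8a1 (0.124) and Rnf5 (0.128).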

How the data were processed

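Libraries came from poly-A heart RNA and a NEBNext Ultra preparation kit, per the labels' protocols. The genome build named is mm10, per the submitters' processing notes. An aligner, a counter, an annotation and the reason for the mixes are not given in sources used here. What the authors deposited were log2 values for 17818 symbols in 5 columns, tied to samples by the column names in the labels (0 columns had no sample). From the values, they follow the log2 CPM of the count plus 0.5. With the mix of replicates undone, 99.92% to 99.94% of genes in the Tet2 columns gave whole counts within 0.01, against 9.06% to 10.4% as deposited. The WT column was fitted by a pair of counts at weight 0.75 for 99.84% of 5715 genes with low counts. At the other weights tried, 65.2% to 65.6% of these genes were fitted.

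Limma 3.58.1 (R 4.3.3), with trend and robust empirical Bayes, was fitted to the log2 values of all 5 libraries with group as the only term. The Tet2 columns were unmixed for this, and the WT column went in as deposited, still mixed. A gene was kept where 2 or more libraries reached 1 CPM. The fit has 2 residual degrees of freedom, with the WT spread taken to equal that of the Tet2 groups. P-values were adjusted by Benjamini-Hochberg over 12734 genes at an FDR of 0.05. The script was tested on simulated data with only the Tet2 columns mixed, so the test does not cover a mixed WT column. Alternatives were the deposited values, voom, other scalings and filters, a larger added count, other priors, a replicate block and leaving out libraries. The members, the gene lists and the unmixing were chosen with earlier results of these data known. Named genes were all members, up to 4 tested genes of a list with the smallest unadjusted p, and the nearest profiles. Tet2 was named as the labelled gene, and Scara5 and Ly6a, the ends of the fibroblast range, and Cilp, Ltbp2, Nox4 and Gsn after their values were seen.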

Additional observations from a re-analysis of the deposited data

How the results depend on the processing

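The counts of called genes depend on the mix of replicates. On the deposited log2 values, where mixing narrows the replicate spread, limma called 2312 genes for vector against WT, 76 for oridonin against vector and 996 for oridonin against WT, with 9, 6 and 2 members among them. Fitted to only the groups compared, vector against WT gave 84 genes, among them Col3a1 and Col12a1, and the other comparisons 0. Leaving out 1 library gave 2 to 127 genes for vector against WT, 0 to 40 for oridonin against vector and 0 to 26 for oridonin against WT. Vector against WT had 3 without vector replicate 1, 2 without vector replicate 2, 72 without the first oridonin library and 127 without the second. Oridonin against vector had 5, 3, 13 and 40 in that order, and 0 without WT. Oridonin against WT had 1, 0, 9 and 26. An arm left with 1 library is assumed to vary like the others. Voom, both other scalings, no filter, a filter of 5 CPM, 2 added counts and plain empirical Bayes gave 0 in all 3.

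Deviations of same-numbered libraries from their group means correlated at -0.296 over 12734 genes. With 2 libraries in each Tet2 group, this cannot show whether same-numbered libraries were handled together. The replicate block gave 10, 9 and 6 called genes with 0 members. A crossed replicate block, chosen after seeing the data, gave 432, 44 and 184, with 5, 5 and 0 members.

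Among members, limma's adjusted p for vector against WT was 0.00841 for Col3a1 without oridonin replicate 1, and without replicate 2 it was 0.00137 for Col3a1 and 0.032 for Col1a1. For oridonin against vector it was 0.0457 for Col12a1 and 0.000935 for Col14a1 without oridonin replicate 2.

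No member reversed in the comparisons with vector under any of these settings. In oridonin against WT, values near 0 changed sign: Col5a1 to 0.0116 and Col8a1 to 0.0706 with totals without the mitochondrial genome, and Col5a1 to 0.0305 and Col5a2 to 0.0286 with the crossed block. Leaving out 1 library gave -0.2904 to 0.0423 for Col5a2 and -0.2117 to 0.1321 for Col8a1, both positive without oridonin replicate 1. The cause was not tested. Members apart from WT numbered 8 rather than 9 under median-of-ratios scaling. At a minimum of 50 CPM, 2 of the 5 nearest genes were the same. With 1 WT library, no difference from WT has a spread of its own on that side, and Col12a1 rests on 12 to 102 counts a library.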
